A study of Homo sapiens with 17 samples.

Results

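The genes described here are noncoding RNA genes of HepG2 libraries, most of them hosts of small nucleolar RNAs (snoRNAs). The rule takes genes by symbol, though it was written with earlier results of these data known: all symbols that start with SNHG, of which the expression table held 19, and 11 further noncoding genes (GAS5, ZFAS1, EPB41L4A-AS1, DANCR, TUG1, NEAT1, MALAT1, NORAD, OIP5-AS1, CYTOR and MIR17HG). This gave 30 of the 17808 genes of the table. In RefSeq, 23 of the 30 span at least 1 snoRNA or scaRNA gene and are called snoRNA hosts below; the other 7 (TUG1, NEAT1, MALAT1, NORAD, OIP5-AS1, CYTOR and MIR17HG) do not. All but SNHG18, which stayed between 0.11 and 0.62 RPKM (reads scaled by the length of the gene model and by the library total), passed the filter on low values, so 29 were tested.

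The study asked how metabolic stress changes transcription and chromatin in HepG2, a line from a human liver tumour. RNA was sequenced from 3 groups of 3 libraries of wild-type (WT) cells: NC, untreated cells labelled 24 h; 2-DG, given 40 mM of 2-deoxyglucose, a glucose analogue that blocks glycolysis, for 48 h; and Nala, given 40 mM of an agent that the labels do not spell out. The titles give 48 h for Nala and the design text 24 h, so its time is uncertain. For 2-DG against NC, the treatment cannot be told apart from the 24 h between the labelled times. The same holds for Nala against NC if the Nala time is 48 h, and for Nala against 2-DG if it is 24 h. The 6 ChIP-seq and 2 ATAC-seq samples of the series were not analysed here.

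Small nucleolar RNAs guide chemical modification of ribosomal and spliceosomal RNA, and most human ones are cut from the introns of host genes. The spliced exons of many SNHG genes, GAS5 and ZFAS1 carry short reading frames that ribosomes enter, and the spliced RNA is then degraded by nonsense-mediated decay (NMD), which depends on translation. Several of these hosts start with a terminal oligopyrimidine (TOP) stretch, the feature that ties the translation of ribosomal protein mRNAs to nutrient signalling. The other genes act as noncoding RNAs in other ways: NEAT1 is the scaffold of nuclear paraspeckles, MALAT1 is a nuclear-speckle RNA, NORAD binds PUMILIO proteins, and MIR17HG is the precursor of the miR-17-92 microRNA cluster.

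The libraries held 6199778 to 6653130 counted reads each. Nala replicates 2 and 3 differed by less than the sampling noise (chi-square over degrees of freedom 0.923 over 12897 genes, against 2.12 to 9.89 for the other replicate pairs) and were counted as 1 sample, so n was 3 for NC, 3 for 2-DG and 2 for Nala. The design text calls the replicates biological. The defining liver markers went against the label in part: of 17 hepatocyte markers, 5 had values here, and APOB and TF, plasma protein genes that HepG2 is known to express, reached at most 0.011 and 0.109 RPKM. CEBPA, a liver transcription factor, ranged from 14 to 33.9 RPKM over the libraries and HNF4A from 1.41 to 3.30 RPKM, so the name HepG2 is used below as a label. The summed level of the epithelial markers ranged over 276.7 to 295.7 RPKM in NC, 233.2 to 252.3 in 2-DG and 271.6 to 291.8 in Nala, and that of the fibroblast markers over 44.6 to 85.4, 33.2 to 50.9 and 60.5 to 69.9. Of 5 fibroblast markers in the table, COL3A1 and PDGFRB were lower with 2-DG (log2 fold change -1.94 and -1.0), as were the macrophage marker CD68 (-1.02) and KRT8 and KRT18 of 7 epithelial markers (-0.36 and -0.28). No marker with a value was at 0 in all libraries, and the part of these markers in the results below was not tested. In bulk RNA, fewer cells of a type and less RNA per cell cannot be told apart.

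Promoter sequence was available in RefSeq (GRCh38.p14) for 26 of the 30 genes; SNHG6, SNHG15, SNHG9 and NEAT1 had no entry used here. The windows below run from 40 bases before the annotated start to 50 bases from it, on the gene's strand, and are shown for 4 hosts that rose with 2-DG and hold a TOP stretch, for EPB41L4A-AS1, which rose most and holds none in this window, and for SNHG4, a host that fell. Capitals mark the TOP stretch, defined as a C followed by at least 4 pyrimidines (C or T) that begins within 5 bases of the annotated first base.
ZFAS1: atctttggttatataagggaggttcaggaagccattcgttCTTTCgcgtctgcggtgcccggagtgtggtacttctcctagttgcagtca
SNHG5: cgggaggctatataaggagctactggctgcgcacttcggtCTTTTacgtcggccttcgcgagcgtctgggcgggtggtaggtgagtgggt
SNHG7: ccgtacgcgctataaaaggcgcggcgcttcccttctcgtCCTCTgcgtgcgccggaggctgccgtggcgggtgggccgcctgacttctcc
SNHG8: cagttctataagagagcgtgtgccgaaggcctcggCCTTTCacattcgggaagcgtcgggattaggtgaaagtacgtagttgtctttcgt
EPB41L4A-AS1: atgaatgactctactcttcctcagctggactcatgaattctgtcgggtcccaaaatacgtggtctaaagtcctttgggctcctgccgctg
SNHG4: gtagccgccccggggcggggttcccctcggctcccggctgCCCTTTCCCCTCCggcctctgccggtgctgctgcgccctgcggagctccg
The windows lie at chr20:49278602-49278691 on the plus strand for ZFAS1, chr6:85678684-85678773 on the minus strand for SNHG5, chr9:136728135-136728224 on the minus strand for SNHG7 and chr4:118278722-118278811 on the plus strand for SNHG8. Those of EPB41L4A-AS1 and SNHG4 lie at chr5:112160486-112160575 and chr5:139274061-139274150, both on the plus strand. The stretch begins exactly at the first base annotated by the promoter entry in ZFAS1, SNHG5 and SNHG4, 1 base before it in SNHG7 and 5 bases before it in SNHG8. For ZFAS1 this entry lies inside the RefSeq gene, which begins at chr20:49278178, so the placement holds for that entry only.

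Across the 26 promoters, 13 held a TOP stretch, among them 11 of the 20 snoRNA hosts with a sequence (55.0%). Of all tested genes with a promoter sequence, 2270 of 10009 held one (22.7%), and of all 27305 promoters 21.1% did. Both directions of change were found among its carriers: ZFAS1, SNHG5, SNHG7, SNHG8 and SNHG16 were higher with 2-DG, while SNHG4 and MIR17HG were lower. The carriers DANCR, MALAT1, SNHG12, SNHG17 and SNHG32 were not called against NC, and SNHG18 was not tested. Of the 9 genes of the set called higher with 2-DG that had a sequence, 5 held the stretch (55.6%), near the share of all hosts. Matches to different motifs were counted apart, whether or not they overlapped. Over the 250 bases before and 50 bases after the start, on both strands, the E-box CACGTG was found in 4 of 26 promoters (NORAD, OIP5-AS1, SNHG7 and TUG1; 15.4%, against 10.2% of the tested genes). TATAAA was found in 3 of 26 (SNHG1, SNHG11 and SNHG7; 11.5%, against 5.59%). Neither TGATGNAA, an amino-acid response element, nor TGACGTCA, a cAMP response element, was found in these 26 windows (1.64% and 3.26% of the tested genes held them).

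The first question was what 2-DG did to these RNAs. With 2-DG, 11 of the 29 tested genes rose against NC and 4 fell, at a limma p adjusted by Benjamini-Hochberg over all 12922 tested genes under 0.05, and 14 did not pass. Of all tested genes 22.6% were higher and 20.7% were lower in the same comparison (43.3% either way), so the share that rose (37.9%) lay above the background and the share that fell (13.8%) below it. Without 2-DG replicate 3, 6 of the 29 were higher (20.7%, against 16.5% of all tested genes), and without NC replicate 3 or 2-DG replicate 2, 2 were lower (6.90%, against 16.1% and 17.3%). The median log2 fold change was 0.23 over the 29 genes and 0.02 over all genes. No change reached 2-fold on the log2(RPKM + 1) scale, which is the scale of every fold change here and understates changes of low genes. The highest value of any gene was only 175 to 230 RPKM by library. No gene held more than 1.43 reads per base of its gene model, and no gene of the set more than 0.653. Whether high values were limited in processing was not tested, so changes of abundant genes may be understated too. Of the 22 tested snoRNA hosts 9 rose and 3 fell, and of the 7 other RNAs 2 rose and 1 fell. The groups did not overlap for 15 genes that were higher and 5 that were lower with 2-DG, against 27.1% and 25.0% of all tested genes. Together the 30 genes took 0.267% to 0.278% of the counted reads in NC, 0.302% to 0.340% in 2-DG and 0.269% to 0.278% in Nala. NEAT1, a long RNA, held 38.4% to 44.8% of these reads, and without it the shares were 0.158% to 0.166%, 0.184% to 0.188% and 0.155% to 0.157%.

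**Figure D1:**
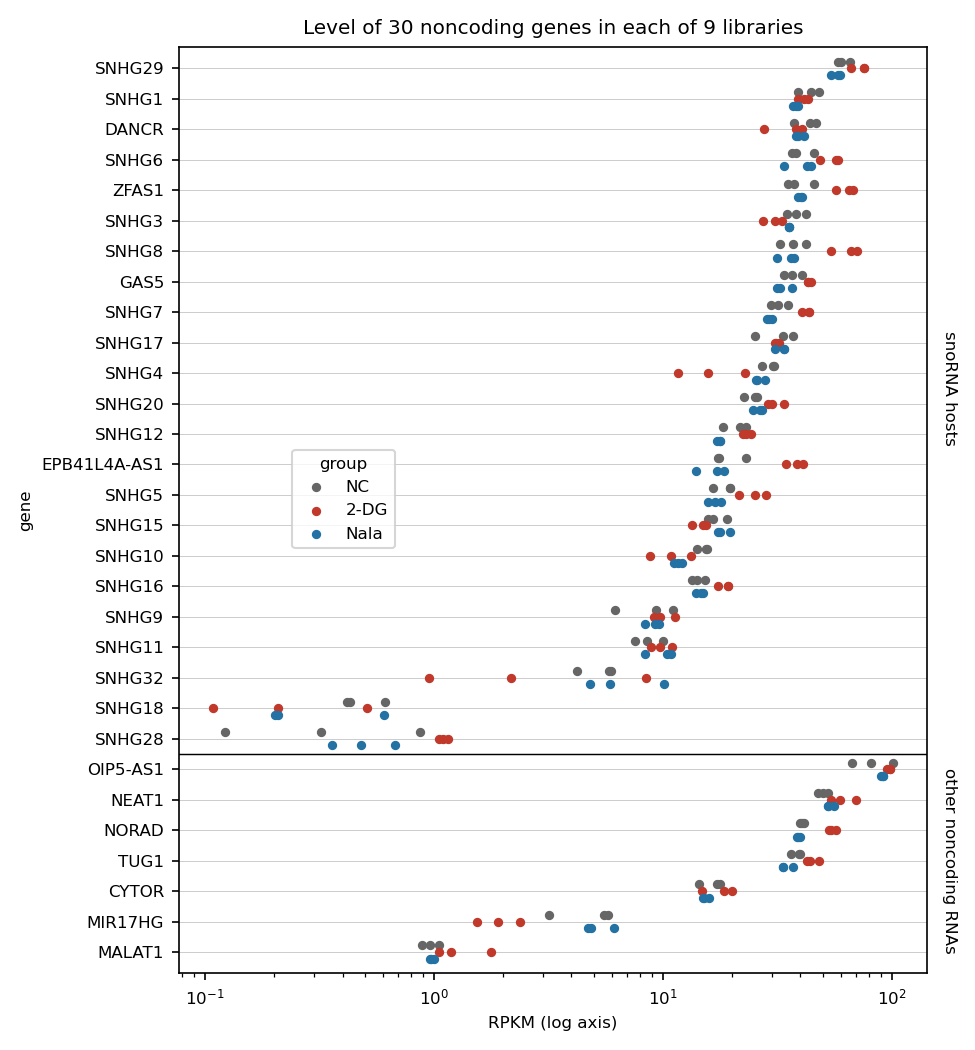
Level of each of the 30 genes in RPKM (log axis) in each of the 9 libraries, 1 point per library, with NC grey, 2-DG red and Nala blue, and the snoRNA hosts above the line. The 2-DG points of EPB41L4A-AS1, SNHG8 and ZFAS1 sit to the right of all NC and Nala points, and those of SNHG4 and MIR17HG to the left.

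EPB41L4A-AS1, a spliced antisense-named host on chromosome 5 that holds SNORA13, had the largest rise. Its level was 17.7, 23.1 and 17.4 RPKM in NC replicates 1 to 3, 34.6, 38.6 and 40.9 RPKM in 2-DG, and 14, 17.3 and 18.5 RPKM in Nala. Every 2-DG library lay above every other library. The log2 fold change for 2-DG against NC was 0.94 (SE 0.135; adjusted p = 6.0e-04), a 1.92-fold rise. EPB41L4A, the protein-coding gene on the opposite strand, had a log2 fold change of -0.42 that was not called (adjusted p = 0.0943).

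SNHG8, a short host of SNORA24, and ZFAS1, a host of C/D box snoRNAs named for its place beside ZNFX1, followed. SNHG8 stood at 32.6, 42.4 and 37.2 RPKM in NC, at 54.5, 70.9 and 66.7 RPKM in 2-DG, and at 36.2, 31.6 and 37.6 RPKM in Nala. Its log2 fold change was 0.76 (SE 0.119; adjusted p = 9.7e-04). ZFAS1 stood at 37.5, 45.7 and 35.4 RPKM in NC, at 57.4, 68.1 and 65.2 RPKM in 2-DG, and at 40.5, 38.9 and 40.0 RPKM in Nala. For both genes the 2-DG libraries lay wholly above those of NC, and NC and Nala overlapped. The log2 fold change of ZFAS1 was 0.68 (SE 0.104; adjusted p = 9.0e-04).

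SNHG7 and SNHG16 rose by smaller amounts, and their calls held in every alternative run other than the 2-fold threshold. SNHG7, a host of H/ACA snoRNAs, had 29.8, 35.1 and 32.1 RPKM in NC, 40.8, 43.7 and 43.7 RPKM in 2-DG, and 28.6, 29.2 and 29.9 RPKM in Nala, and its log2 fold change was 0.39 (adjusted p = 0.00422). SNHG16 had 13.5, 15.2 and 14.1 RPKM in NC, 17.4, 19.4 and 19.3 RPKM in 2-DG, and 14.7, 15.1 and 14 RPKM in Nala, and its log2 fold change was 0.37 (adjusted p = 0.0109). In both, the lowest 2-DG library exceeded the highest NC library. DIPK1B, which overlaps SNHG7 on the opposite strand by 149 bases, rose as well (log2 fold change 1.28, adjusted p = 1.9e-04), from a mean of 3.53 to 9.96 RPKM. No source used here says whether strand was used in counting, so reads in such overlaps cannot be told apart.

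SNHG5, SNHG6, SNHG29 and SNHG20 also rose, and their calls depended on single libraries or on the model. SNHG5, a host of the SNORD50 snoRNAs, had 16.6, 19.7 and 19.7 RPKM in NC, 21.6, 25.4 and 28.4 RPKM in 2-DG, and 15.8, 17.9 and 16.9 RPKM in Nala (log2 fold change 0.41, adjusted p = 0.0211). Its groups did not overlap, but the adjusted p was 0.0621, 0.0586 and 0.0887 without NC replicate 1, 2-DG replicate 2 or 2-DG replicate 3, and 0.0506 with voom on recovered reads. SNHG6, the host of SNORD87, had 38.1, 45.9 and 36.9 RPKM in NC, 48.5, 57.3 and 58.5 RPKM in 2-DG, and 33.8, 42.7 and 44.6 RPKM in Nala (log2 fold change 0.44, adjusted p = 0.0187). Its lowest 2-DG library lay only just above its highest NC library, and leaving out NC replicates 1 or 3 gave adjusted p of 0.0506 and 0.0710, and 2-DG replicates 2 or 3 gave 0.0603 and 0.0670.

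SNHG29, the most abundant snoRNA host of the set and the host of SNORD49 and SNORD65, had 58.2, 65.8 and 60.1 RPKM in NC, 66.6, 75.6 and 75.9 RPKM in 2-DG, and 54.2, 58.4 and 59.4 RPKM in Nala. The lowest 2-DG library was only just above the highest NC library. Its log2 fold change was 0.24 (adjusted p = 0.0345), and the call was lost when NC replicates 1 or 3 (adjusted p 0.0942 and 0.103) or 2-DG replicates 2 or 3 (0.109 and 0.121) were left out, one at a time. It was also lost with no filter (0.0511), with no intensity trend (0.0730) and with voom (0.0630). SNHG20 rose by 0.31 on the log2 scale (adjusted p = 0.0218) from a mean of 24.6 ± 1.73 RPKM (SD, n = 3) to 30.9 ± 2.54 RPKM (SD, n = 3). Its adjusted p was 0.0634 and 0.0541 without NC replicate 1 or 2-DG replicate 3, and 0.0518 with voom. SEC14L1, which covers most of SNHG20 on the same strand, had a log2 fold change of -0.05 (adjusted p = 0.744).

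Among the hosts that fell, SNHG4 changed most. SNHG4 lies on chromosome 5 within MATR3, on the same strand, and hosts SNORA74A. It had 27.3, 30.8 and 30.3 RPKM in NC, 22.8, 11.7 and 15.9 RPKM in 2-DG, and 27.9, 25.6 and 25.8 RPKM in Nala. All 2-DG libraries were the lowest of the 9 and were spread wider than those of NC. The log2 fold change was -0.82 (SE 0.191; adjusted p = 0.00741), while that of MATR3 was -0.22 (adjusted p = 0.0561).

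SNHG10 and SNHG3 fell less. SNHG10, the host of SCARNA13, had 15.4, 14.2 and 15.6 RPKM in NC, 13.2, 8.81 and 10.9 RPKM in 2-DG, and 11.7, 11.2 and 12.2 RPKM in Nala (log2 fold change -0.44, adjusted p = 0.0276). Its 2-DG libraries lay below those of NC, and Nala overlapped 2-DG. With NC replicates 1 or 3 left out its adjusted p was 0.0604 and 0.0861, and with 2-DG replicates 2 or 3 left out it was 0.0885 and 0.0693. SNHG3, which lies almost wholly within RCC1 on the same strand, fell from a mean of 38.5 ± 3.80 to 30.5 ± 2.97 RPKM (SD, n = 3 each; log2 fold change -0.33, adjusted p = 0.0247). The fall of SNHG3 was no longer called when NC replicates 2 or 3 (adjusted p 0.0568 and 0.101) or 2-DG replicates 2 or 3 (0.0880 and 0.0575) were omitted in turn. RCC1 itself, a nucleotide exchange factor of Ran, fell by 0.57 on the log2 scale (adjusted p = 0.00243), and reads in the exons they share cannot be assigned to one of them here.

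GAS5 and SNHG1, the hosts with the most snoRNA genes, were not called. GAS5, named for its rise in growth-arrested mouse cells, had 33.8, 40.4 and 36.6 RPKM in NC, 44.3, 43.0 and 43.1 RPKM in 2-DG, and 36.9, 31.5 and 32.6 RPKM in Nala. The 2-DG libraries lay above those of NC without overlap, yet the log2 fold change was 0.23 (95% interval 0.04 to 0.43) with an adjusted p of 0.0570, which became 0.0322 without NC replicate 2 and 0.0422 with the Nala pair kept apart. ZBTB37, which overlaps GAS5 on the opposite strand, rose by 0.58 on the log2 scale (adjusted p = 0.00728). SNHG1 had 39.1, 48.3 and 44.7 RPKM in NC, 43.3, 41.3 and 39.2 RPKM in 2-DG, and 39.1, 38.2 and 37.0 RPKM in Nala. Its NC and 2-DG libraries overlapped, with a log2 fold change of -0.09 (95% interval -0.29 to 0.11; adjusted p = 0.454).

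Of the other hosts that did not pass, DANCR, SNHG9, SNHG11, SNHG12, SNHG15, SNHG17 and SNHG32 had log2 fold changes between -0.69 and 0.19. The value of -0.69 belonged to SNHG32, which ranged from 0.958 to 8.48 RPKM among the 2-DG libraries alone. SNHG28 had a log2 fold change of 0.58 (adjusted p = 0.0542) and ranged from 0.122 to 0.868 RPKM in NC and from 1.05 to 1.16 in 2-DG. VSIG8, on the same strand as SNHG28 and overlapping it by 722 bases, rose on the log2 scale by 1.25 (adjusted p = 0.00205).

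**Figure D2:**
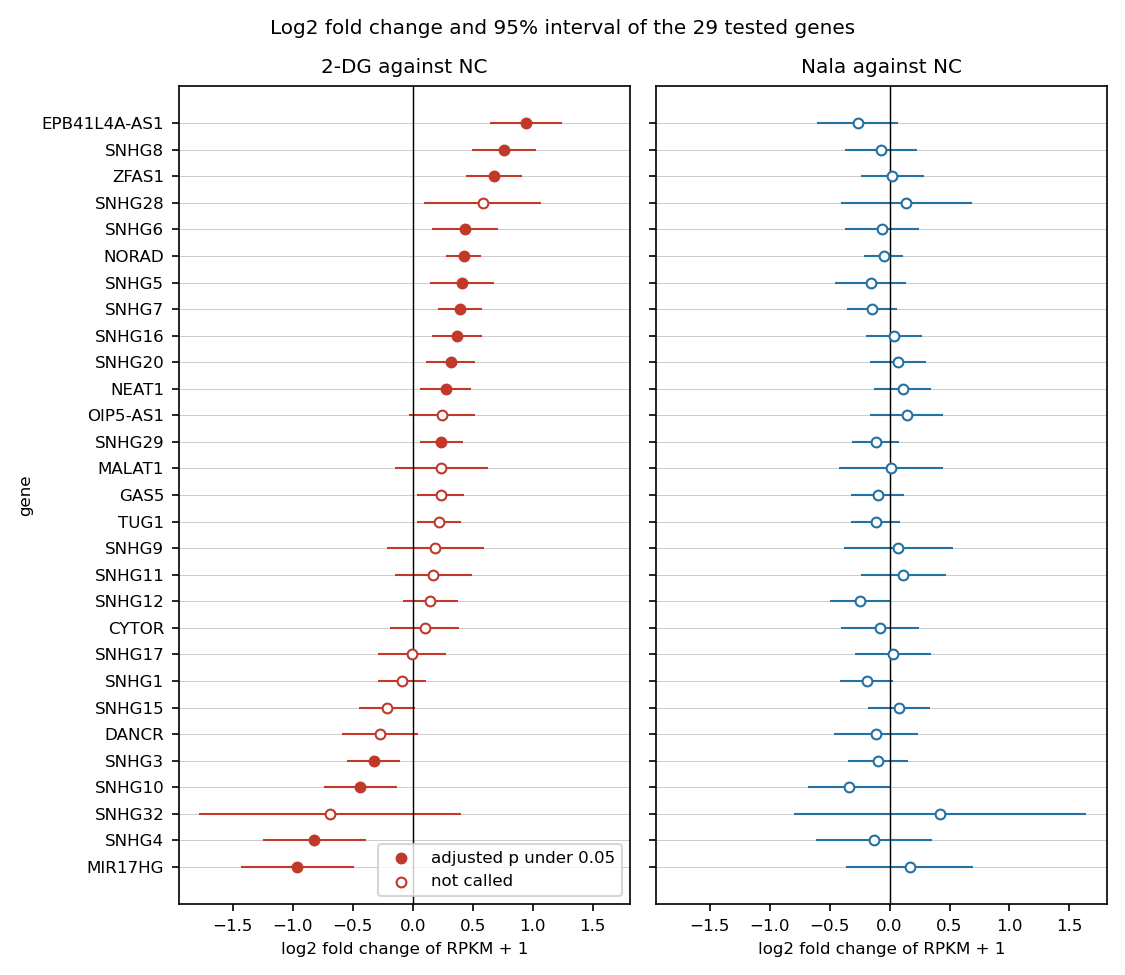
Log2 fold change of RPKM + 1 with its 95% interval for the 29 tested genes, 2-DG against NC on the left and Nala against NC on the right, with filled points for an adjusted p under 0.05. The genes run in the order of their 2-DG value, from 0.94 for EPB41L4A-AS1 to -0.96 for MIR17HG, and the panel for Nala holds no filled point.

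Among the RNAs that host no snoRNA, NORAD changed with the least spread. It had 41.6, 40.6 and 39.9 RPKM in NC, 57.3, 54.4 and 53.3 RPKM in 2-DG, and 39.9, 39.0 and 38.5 RPKM in Nala. The spread within each group was far smaller than the gap between 2-DG and the rest. Its log2 fold change was 0.42 (SE 0.0650; adjusted p = 8.6e-04), and the call held in every alternative run other than the 2-fold threshold.

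NEAT1, the paraspeckle scaffold, had 50.2, 47.7 and 52.8 RPKM in NC, 70.0, 54.3 and 59.4 RPKM in 2-DG, and 55.8, 52.7 and 52.6 RPKM in Nala. Its 2-DG libraries lay above those of NC, but 2-DG replicate 2 was below Nala replicate 1. The log2 fold change was 0.27 (adjusted p = 0.0414), and this call was lost under all 3 other scalings (adjusted p 0.0554, 0.0911 and 0.0559), with no filter (0.0619), with no intensity trend (0.0746) and with the compared groups alone (0.0626). It was also lost without NC replicate 1, 2 or 3 (0.0764, 0.114 and 0.0616), without 2-DG replicate 1 or 3 (0.0730 and 0.0788) and without Nala replicate 1 (0.0630), and without 2-DG replicate 1 the log2 fold change was 0.18. MALAT1, its neighbour on chromosome 11, was low, with 1.05, 0.965 and 0.888 RPKM in NC, 1.78, 1.19 and 1.05 RPKM in 2-DG, and 0.977, 1.00 and 0.967 RPKM in Nala. Why MALAT1 was low was not tested. MALAT1 was not called (log2 fold change 0.24, adjusted p = 0.293).

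TUG1, a conserved RNA first described in the mouse retina, had 39.9, 36.3 and 39.2 RPKM in NC, 48.4, 42.5 and 44.2 RPKM in 2-DG, and 37.2, 33.6 and 33.6 RPKM in Nala. The 2-DG libraries lay above the rest, and the log2 fold change of 0.22 against NC missed the threshold (adjusted p = 0.0515). It passed with the Nala pair kept apart (0.0342) and with voom (0.0274). OIP5-AS1, the most abundant of the 30 genes in RPKM, had 101.3, 67.1 and 81.4 RPKM in NC and 95.5, 98.8 and 98.5 RPKM in 2-DG, and the groups overlapped (log2 fold change 0.25, adjusted p = 0.131). Its antisense neighbour OIP5, a centromere factor gene, fell by 1.35 on the log2 scale (adjusted p = 1.5e-05). CYTOR was not called either (log2 fold change 0.10, adjusted p = 0.567).

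MIR17HG fell most of all 29 genes. It had 3.18, 5.78 and 5.55 RPKM in NC, 2.38, 1.55 and 1.92 RPKM in 2-DG, and 6.11, 4.86 and 4.73 RPKM in Nala. Each 2-DG library was below each of the other 6. The log2 fold change was -0.96 (SE 0.211, adjusted p = 0.00559), 1.95-fold lower on the RPKM + 1 scale. The mean without the added 1 went from 4.84 RPKM in NC to 1.95 RPKM in 2-DG, a larger fold. The call held in every alternative run other than the 2-fold threshold.

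The microRNAs cut from this host repress target mRNAs through their seed, so 6 mature ones are shown with the seed, bases 2 to 8, in capitals (RefSeq, GRCh38.p14, plus strand of chromosome 13).
hsa-miR-17-5p: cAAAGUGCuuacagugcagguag
hsa-miR-20a-5p: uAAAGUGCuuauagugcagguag
hsa-miR-18a-5p: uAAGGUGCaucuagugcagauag
hsa-miR-19a-3p: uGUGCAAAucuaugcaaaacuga
hsa-miR-19b-3p: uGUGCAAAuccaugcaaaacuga
hsa-miR-92a-3p: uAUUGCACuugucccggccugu
They fall into 4 seed groups, since miR-17 and miR-20a share a seed and so do both miR-19 forms. The mature microRNAs themselves were not measured in these libraries, only the reads on the host.

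Rows inside the introns of the hosts were read as well. The table listed 43 snoRNA and scaRNA genes as rows of their own inside 16 of the hosts. A further row was left out because its gene model was more than 1.5 times as long as its RefSeq span. Rows with a model shorter than their RefSeq span were kept, among them SNORD77, SNORD78 and SNORD81 in GAS5. With 2-DG none of the 43 was higher and 9 were lower (20.9%, against 20.7% of all tested genes), 35 of 43 had a negative log2 fold change, and the median was -0.40. The 9 were SNORD22, SNORD26 and SNORD28 in SNHG1, SNORD47, SNORD77 and SNORD81 in GAS5, SNORD99 in SNHG12, SNORD50B in SNHG5 and SNORA78 in SNHG9. The count of lower rows was 5 without 2-DG replicate 3, NC replicate 2 or NC replicate 3, 19 without NC replicate 1 and 16 without 2-DG replicate 1, and voom on recovered reads called 3. Elsewhere in the genome, 156 tested snoRNA and scaRNA rows gave 5 higher, 12 lower and a median of -0.25, so negative values were not particular to these hosts. The 15 rows inside hosts that themselves rose held 0 higher and 1 lower.

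These rows hold few reads, and an mRNA library does not capture mature snoRNAs well, so snoRNA reads and reads of the host's unspliced introns cannot be told apart. The ratios below have the host row as denominator, so a host that rose lowers its ratio by itself. Per 100 host reads, the 10 GAS5 rows gave 58.4, 73.1 and 78.7 snoRNA reads in NC, 51.5, 34.4 and 42.0 in 2-DG, and 66.6, 65.9 and 64.1 in Nala. For ZFAS1 the ratios were 18.9, 29.6 and 22.2 in NC and 16.2, 8.70 and 13.0 in 2-DG. The snoRNA reads of ZFAS1 themselves overlapped (46, 89 and 49 in NC, 58, 39 and 55 in 2-DG), while its host reads rose from 243, 301 and 221 to 358, 448 and 423. Those of GAS5 overlapped too (216, 328 and 303 in NC, 240, 164 and 198 in 2-DG). For SNHG5 they were 14, 11.6 and 24.6 in NC and 7.46, 4.22 and 4.37 in 2-DG, from 15, 15 and 30 snoRNA reads in NC and 10, 7 and 8 in 2-DG. In these 3 hosts and in SNHG9, with few reads, all 2-DG ratios lay below all NC ratios (exact permutation test, two-sided p = 0.10, the smallest that 3 against 3 can give), and no host showed the reverse. Of 105 other tested genes that span snoRNA rows, 7 had 2-DG ratios wholly below NC (6.67%) and 3 wholly above. With Nala the ratios lay wholly below NC in 2 of the 16 hosts, SNHG6 and SNHG16, and in 5 of the other 105 genes.

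The mean ratio was lower than in NC in 14 of the 16 hosts with 2-DG and in 11 with Nala, against 66.7% and 56.2% of the 105 other genes. SNHG1 had 30.4, 34.6 and 36.6 in NC and 31.0, 20.6 and 22.6 in 2-DG, and its groups overlapped (exact permutation p = 0.200). Pooled over the 16 hosts, the ratio was 16.0, 19.9 and 21.4 in NC, 16.4, 9.96 and 11.7 in 2-DG, and 19.0, 16.7 and 16.3 in Nala. The pooled 2-DG ratio of replicate 1 lay within the NC range, and the other 2 libraries lay below it.

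**Figure D3:**
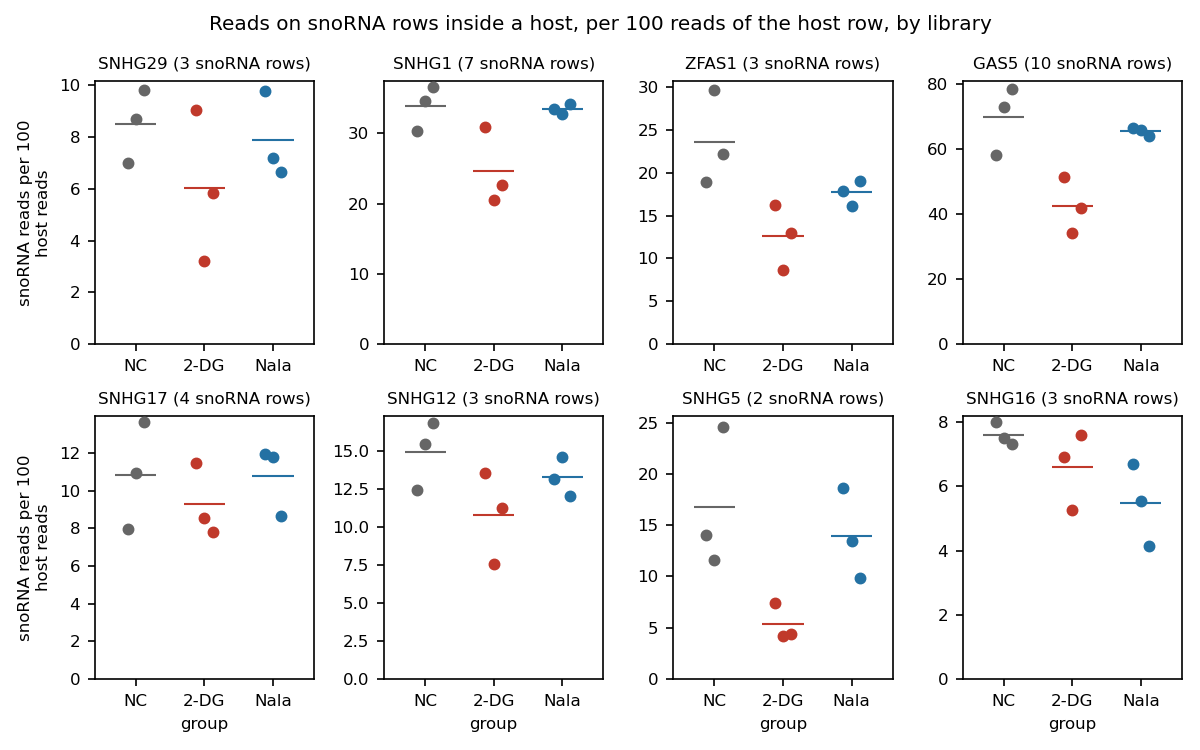
Reads on the snoRNA rows inside a host per 100 reads of the host row (linear axes from 0), 1 point per library with the mean of the 3 libraries of each group as a line, for the 8 hosts with at least 2 snoRNA rows and at least 100 host reads in every library. GAS5, ZFAS1 and SNHG5 show 2-DG points below all NC points, while the NC and 2-DG points of the other 5 hosts overlap.

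Nala gave no call among these genes. Against NC, none of the 29 was higher or lower, where 0.0619% of all tested genes (8 genes) were higher and 0 were lower; no member had an unadjusted p under 0.05, the smallest adjusted p was 0.907, and no alternative run, voom included, called any. The log2 fold changes ran from -0.34 for SNHG10 to 0.42 for SNHG32. The intervals bound what could have been missed: -0.61 to 0.07 for EPB41L4A-AS1, -0.37 to 0.23 for SNHG8, -0.24 to 0.29 for ZFAS1 and -0.21 to 0.11 for NORAD. That of MIR17HG ran from -0.36 to 0.70. The bound differed by gene, and the interval of SNHG32, from -0.80 to 1.64, did not exclude a rise above 2-fold. In 3 genes the Nala samples lay below all NC samples (SNHG1, SNHG10 and SNHG12; 8.03% of all tested genes did), and in none above (10.2% did).

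The test of Nala against 2-DG called 2 of the 29 genes higher and 12 lower in Nala. Of all tested genes 17.9% were higher and 18.0% lower (35.9% either way). If the Nala time is 24 h, agent and time cannot be told apart in this test. This comparison and the one with NC use the same 2-DG libraries, so they are not independent. MIR17HG (log2 fold change 1.13, adjusted p = 0.00560) and SNHG4 (0.69, adjusted p = 0.0313) were higher in Nala. EPB41L4A-AS1 was lower by the largest amount (-1.21, adjusted p = 3.9e-04), followed by SNHG8 (-0.83, adjusted p = 0.00159), ZFAS1 (-0.65, adjusted p = 0.00269), SNHG5 (-0.57, adjusted p = 0.00997) and SNHG7 (-0.54, adjusted p = 0.00201). NORAD (-0.47), TUG1 (-0.34) and GAS5 (-0.33) were lower too, with adjusted p of 0.00126, 0.0181 and 0.0270. The remaining 4 were SNHG6, SNHG12, SNHG16 and SNHG29, at -0.50 to -0.33. SNHG12 had 18.3, 21.8 and 23.2 RPKM in NC, 22.5, 24.4 and 23.2 RPKM in 2-DG and 17.3, 17.9 and 17.8 RPKM in Nala, and it was called in this comparison and in neither of those with NC (log2 fold change -0.39, adjusted p = 0.0237).

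Several of these calls depended on single libraries or on the model. With every library kept, SNHG4 was not called with no filter (0.0556) or with the compared groups alone (0.0585), nor SNHG6 with voom (0.0514). Without Nala replicate 1, which leaves the group with the 1 sample made of replicates 2 and 3, assumed to vary like the other groups, 0 were higher and 7 lower. MIR17HG then had an adjusted p of 0.0653, SNHG4 of 0.166, SNHG5 of 0.0901, SNHG6 of 0.201, SNHG12 of 0.133, SNHG16 of 0.141 and SNHG29 of 0.117. Without 2-DG replicate 2, SNHG4 (0.0588), SNHG6 (0.0584), SNHG12 (0.0671), SNHG16 (0.0898) and GAS5 (0.0576) were not called. Without 2-DG replicate 3, SNHG4 (0.0709), SNHG6 (0.0635), SNHG12 (0.0604), SNHG16 (0.105) and GAS5 (0.0647) were not called, and without NC replicate 3 SNHG16 was not (0.0569).

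The mRNAs of proteins around these RNAs were followed with gene lists. All lists were chosen by function, with earlier results of these data known. Protein levels were not measured, and the names and counts below refer to mRNAs. The counts are to be read against the 22.6% of all tested genes that were higher and the 20.7% that were lower. Of 24 tested NMD factors 4 rose and 4 fell with 2-DG (16.7% each; median log2 fold change -0.04). NBAS, a factor of NMD at the endoplasmic reticulum, rose by 0.69, SMG6, the NMD endonuclease, by 0.53, and SMG5, an adaptor for UPF1 dephosphorylation, by 0.52 (adjusted p 0.00123, 0.00201 and 1.9e-04). The fourth that rose was CASC3 (0.31), and those that fell were the cap-binding NCBP1 (-0.44), UPF3B (-0.29), SMG9 (-0.28) and EIF4A3 (-0.26), named after their values were seen. In decapping and decay, 4 of 17 rose and 1 fell (median 0.16): DCP1B by 0.61 and EDC3 by 0.49, both of the decapping machinery, rose, and the exosome subunit EXOSC2 fell by 0.50. Among the mRNAs of 20 snoRNP proteins 0 rose and 6 fell (median -0.15). That of the C/D box core protein NOP56 was at -0.52 (adjusted p = 0.00760), NUFIP1 at -0.42 and RUVBL1 at -0.35. The count of 6 became 2 without NC replicate 2 or NC replicate 3, and 3 without 2-DG replicate 1. The count of NMD factors that rose became 7 without 2-DG replicate 1, and that of those that fell became 2 without NC replicates 2 or 3, 2-DG replicate 1 or Nala replicate 1, each left out alone.

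Protein-coding genes that share a feature with the hosts were followed too. The NMD-sensitive mRNAs and the protein-coding snoRNA hosts gave mixed directions, while the called TOP mRNAs only rose with all libraries in the fit reported here. Of 20 tested mRNAs known to be NMD-sensitive 8 rose and 5 fell (40.0% and 25.0%, against 22.6% and 20.7% of all tested genes; median 0.10), led by the stress transcription factor ATF3 at 1.80 (mean 13.0 ± 1.30 RPKM in NC and 47.9 ± 4.81 in 2-DG, SD, n = 3 each), GADD45A, a stress-response gene, at 1.39, and NAT9 at 1.03. Of 17 TOP mRNAs outside the ribosome 5 rose (29.4%) and 0 fell (median 0.13), with the translation factors EIF4B at 0.30 and EIF3F at 0.27 and TPT1 at 0.26; without 2-DG replicate 1, 8 rose and 1 fell. Of 28 protein-coding snoRNA hosts 4 rose and 5 fell (14.3% and 17.9%; median 0.01), with the ribosome biogenesis gene PPAN at 0.73, RCC1 at -0.57 and the import receptor TNPO2 at -0.54.

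The mRNAs of proteins that work with NEAT1, NORAD, TUG1 and OIP5-AS1 were lower more often than higher. Of the mRNAs of 16 paraspeckle proteins 1 rose and 8 fell (50%, against 20.7% of all tested genes), with a median of -0.22. Among those that fell were SFPQ at -0.48 (adjusted p = 0.00102), HNRNPR at -0.33 and RBM14 at -0.32. That count of 8 became 2 without NC replicate 2 or 2-DG replicate 2, 4 without NC replicate 3 or 2-DG replicate 3, and 5 without Nala replicate 1. Of the mRNAs of 8 tested protein partners of NORAD, TUG1 and OIP5-AS1, 1 rose and 5 fell. Those of the Polycomb subunits EZH2 and EED were at -0.67 (adjusted p = 1.7e-04) and -0.64, and that of the NORAD-binding RBMX at -0.48. The count of 5 became 3 without NC replicate 2 or 2-DG replicate 3, and the 1 that rose became 0 without 2-DG replicate 2 or 3 or NC replicate 3. With Nala, no gene of any of these 8 lists was called against NC, where only 0.0619% of all tested genes were called.

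**Figure D4:**
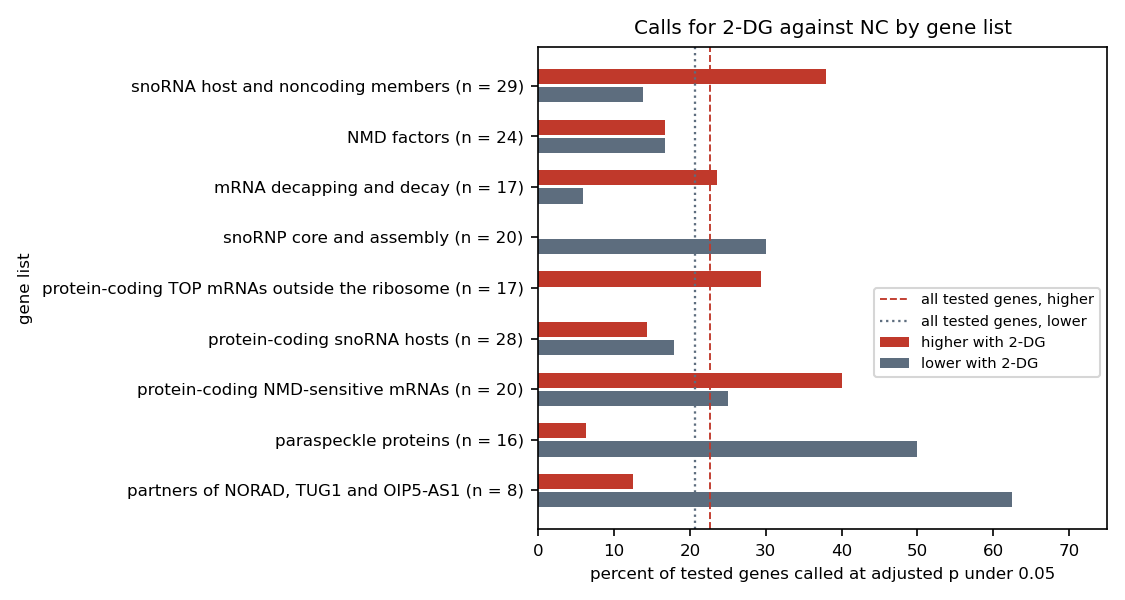
Percent of tested genes called higher (red bars) and lower (grey bars) for 2-DG against NC in the noncoding set and in 8 gene lists, with n the number of tested genes and the lines at the shares of all tested genes, 22.6% higher (dashed) and 20.7% lower (dotted). The noncoding set and the NMD-sensitive mRNAs exceed the dashed line most, and the genes of paraspeckle proteins and RNA partners exceed the dotted line most.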

How the data were processed

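RNA-seq values of 9 libraries were used, 3 each of NC, 2-DG and Nala. The authors deposited 1 table of RPKM values, reads scaled by gene model length and library total, for 17808 genes. Per the submitters' processing notes, hg38 was the build, and RSEM 1.2.8, Bowtie2 2.2.5, STAR 2.7.6a and HISAT2 2.1.0 were among the tools of the whole series. No source used here gives their roles, the annotation or the strand setting. An mRNA kit is named in the labels. Whole reads were recovered from the RPKM steps (100.0% of genes within 0.0001 reads), giving totals of 6199778 to 6653130 reads.

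The 12922 genes that reached 1 RPKM in at least 3 of 9 libraries were fitted as log2(RPKM + 1) with an intensity trend in limma 3.58.1 (R 4.3.3), all groups together, with Nala replicates 2 and 3 averaged (8 samples, 5 residual degrees of freedom). The averaging followed a rule on their chi-square agreement. Values of p were adjusted by Benjamini-Hochberg over all tested genes within each comparison, and an adjusted p under 0.05 was called. The fit was tested on simulated data, with a pass mark set on changes larger than those of the genes described here. Passing it does not show how well changes of the size reported here are recovered. Values in every library are given for called members without overlap between the groups and a mean of at least 5 RPKM, at most 14, and for GAS5, SNHG1, NEAT1 and MALAT1 whatever they did. From each list the 3 called genes with the largest absolute change are named. snoRNA rows were placed in hosts by RefSeq coordinates (GRCh38.p14), and each symbol's first listed RefSeq promoter was used. Some genes of the marker lists are not reported here. The members and lists were chosen with earlier results of these data known. Alternatives were another pseudocount, 2 other filters, 3 other scalings, no trend, the compared groups alone, the Nala pair kept apart, a replicate block, voom on recovered reads, a 2-fold threshold and leaving out each library.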

Additional observations from a re-analysis of the deposited data

How the results depend on the processing

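Over 21 alternatives no called gene of the set changed direction. Leaving out 1 library gave 6 to 11 genes higher and 2 to 4 lower for 2-DG against NC (11 and 4 in the report), with 6 higher without 2-DG replicate 3 and 2 lower without NC replicate 3 or 2-DG replicate 2. For Nala against 2-DG it gave 0 to 2 higher and 7 to 12 lower (2 and 12 in the report), with 1 higher without 2-DG replicate 2 and 0 higher and 7 lower without Nala replicate 1. For Nala against NC it gave 0 in both directions. The other settings gave 10 to 14 higher and 4 to 5 lower for 2-DG against NC, apart from the 2-fold threshold, which left 0 and 0; for Nala against 2-DG it left 1 higher and 1 lower. With no filter, and with the compared groups alone, 1 gene was higher for Nala against 2-DG; the cause was not tested. EPB41L4A-AS1, SNHG8, ZFAS1, SNHG7, SNHG16, NORAD, SNHG4 and MIR17HG kept their calls for 2-DG against NC under each pseudocount, filter, scaling, model and omitted library.

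Same-numbered replicates were not paired by the labels, and their deviations did not correlate (-0.12 to 0.08). A fit with the replicate number as a block, with the Nala pair kept apart, gave 13 higher and 5 lower for 2-DG against NC, 3 higher and 12 lower for Nala against 2-DG, and 0 and 0 for Nala against NC. TUG1 passed for 2-DG against NC with the block (adjusted p = 0.0215).

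Of all tested genes, 5592 were called for 2-DG against NC (1081 at 2-fold) and 4639 for Nala against 2-DG (1037 at 2-fold; 2212 without Nala replicate 1). For Nala against NC 8 were called, 2 to 23 with 1 library left out, and 25 with no filter, 15 with a filter of 5 RPKM, 16, 13 and 17 under the other scalings, 64 with the Nala pair kept apart, 31 with the block and 72 with voom. Gene lists also depended on the model. With no intensity trend the mRNAs of 3 snoRNP and 3 paraspeckle proteins were lower. Those of 5 paraspeckle proteins and 2 NMD factors were lower with the compared groups alone, and quantile normalization gave 1 lower TOP mRNA. voom on recovered reads, chosen for the snoRNA rows after the data were seen, called 3 of them lower in place of 9. Depth limits SNHG9, SNHG18, SNHG28 and the snoRNA rows most, where few reads set each value.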
